A study of Mus musculus with 2 samples.

Results

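Phox2a, Hand1, Hand2, Gata2, Gata3, Isl1, Insm1 and Rest encode transcription factors tied to the sympathoadrenal lineage, the neural crest cells that form the adrenal medulla and the sympathetic ganglia. These 8 genes, of 21938 protein-coding genes in the annotation, were chosen by that role, and each was taken with its gene body and 100 kb on each side (mm10, GENCODE M21). Chromatin accessibility was measured by DNase-seq, in which the enzyme DNase I cuts DNA where no nucleosome covers it. The tissue was whole adrenal gland from female mice of the strain labelled B6CASTF1/J at 10 days of age, and the label of each sample names 3 females. There was 1 group with 2 biological replicates and no treated or mutant group, so every comparison is among genes, among regions or between the 2 replicates, and none was tested. Cortex, medulla and capsule lie together in such tissue, so fewer open cells of a type and less accessibility per cell cannot be told apart.

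In the developing medulla, crest-derived precursors switch on Phox2a, a homeodomain factor that drives the catecholamine enzymes, together with the bHLH factor Hand2 and the zinc finger factor Gata3. Insm1, a zinc finger factor of neuroendocrine cells, and Isl1, a LIM homeodomain factor, act in the same lineage, and Gata2 and Hand1 are paralogs of Gata3 and Hand2. Rest works the other way: it binds a long DNA element, the RE1, and represses neuronal and secretory genes in cells outside the nervous system.

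A peak is a stretch of excess cutting, and its height is the normalised signal that the authors gave once per peak. A shared region is a merged stretch that holds a peak of each replicate. A promoter region has at least its edge within 1 kb of an annotated start of the gene. A distal region lies wholly further than that from every annotated start of any gene. Replicate 1 had 98813 peaks and replicate 2 had 55135 in the shorter of the 2 peak lists per sample, which is used throughout unless the longer list is named. All peaks of the shorter list held a base at a false discovery rate (FDR) of up to 0.001, against 64.5% and 61.0% of those in the longer list, which reaches 0.05. Replicate 1 was the higher in 93.0% of all 48299 shared regions. All values below therefore come as replicate 1, then replicate 2.

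Of the 8 genes, 6 had a shared promoter peak (Phox2a, Gata2, Gata3, Isl1, Insm1 and Rest), against 63.6% of all coding genes. Hand2 had a promoter peak in replicate 1 only, which made 7 of 8 genes in replicate 1 (67.5% of all coding genes) and 6 of 8 in replicate 2 (64.5%). Hand1 had none in either replicate. With 8 genes, these shares sit near the background. Ranked by the mean of both replicates, the highest shared promoter peaks were 7.08 and 3.18 for Gata3, 5.7 and 3.41 for Rest, 5.39 and 2.78 for Gata2, 3.33 and 1.46 for Isl1, 1.72 and 1.49 for Phox2a, and 1.08 and 0.725 for Insm1. Rest stood above Gata3 in replicate 2 and below it in replicate 1, and Isl1 and Phox2a also changed places, so the order within each of these pairs was not stable between replicates. The 13948 coding genes with a shared promoter peak had medians of 5.95 and 3.1, with 10th percentiles of 1.36 and 0.953.

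**Figure D1:**
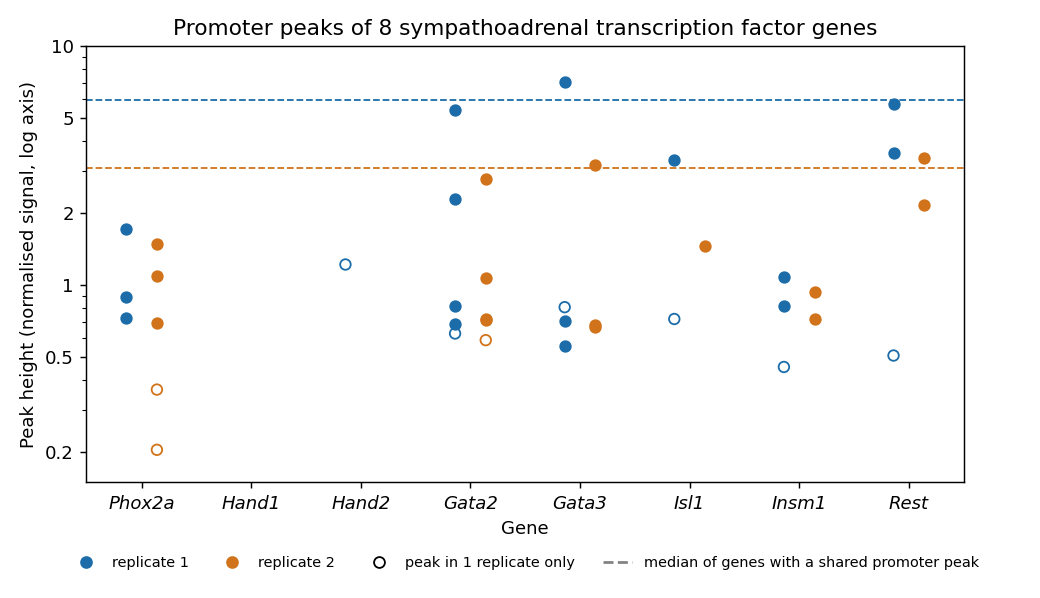
Height of each promoter peak (vertical log axis, normalised signal) for the 8 genes, in replicate 1 (blue) and replicate 2 (orange); open circles are peaks found in 1 replicate only, and dashed lines are the medians of genes with a shared promoter peak. Gata3, Rest and Gata2 reach the dashed lines or come near them, Insm1 and Phox2a stay below in both replicates, and Hand1 has no point.

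The footprints inside these peaks show the bases that were protected from cutting. A footprint is a short stretch with fewer cuts than its open surroundings, taken as occupied by a protein. In the highest promoter region of each of the 6 genes, the longest footprint found in both replicates is printed with up to 12 bases on each side, 5′ to 3′ on the strand of the gene, with the bases common to both replicates in capitals. They are shown because they are the protected letters in the highest region that counted as a promoter of each gene. Those of Phox2a and Gata3 lie at 1275 and -1055 bp from the nearest start of the gene. Both are thus beyond 1 kb, and only the edges of their regions come within it.
Phox2a: gaggtggcggccCCGGCAcgggcgcagcgg
Gata2: ctgggCGGCGCGCGGCGCTGATTGgctgg
Gata3: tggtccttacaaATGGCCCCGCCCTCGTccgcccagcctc
Isl1: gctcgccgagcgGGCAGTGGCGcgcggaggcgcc
Insm1: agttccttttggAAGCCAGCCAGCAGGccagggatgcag
Rest: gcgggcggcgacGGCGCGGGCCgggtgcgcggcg
The Phox2a stretch lies in a coding exon (chr7:101822006-101822035), that of Gata2 in a UTR (chr6:88198599-88198627), and that of Gata3 in an intron (chr2:9879635-9879674, minus strand). Those of Isl1 (chr13:116309816-116309849, minus strand), Insm1 (chr2:146221224-146221262) and Rest (chr5:77265456-77265489) lie before the first annotated base of the gene. The protected core was 19 bases in Gata2 and 16 in Gata3, and 6 in Phox2a, where the footprint of replicate 1 covered 15 bases and that of replicate 2 covered 7.

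Phox2a (ENSMUSG00000007946.11, chr7:101818313-101822726, plus strand) had its highest promoter region inside the gene. This region, chr7:101821621-101822320, spanned 700 bp, had its highest peak in a coding exon, 1235 bp after an internal start, and had heights of 1.72 and 1.49. At the first start, chr7:101818181-101818425 had 0.896 and 1.09, and a smaller region before it, chr7:101817854-101818027, had 0.729 and 0.694. Replicate 2 was the higher at the first start and added 2 low peaks further upstream (0.366 and 0.205) that replicate 1 lacked. Restricting promoters to 500 bp of a start leaves the 0.896 and 1.09 of the first start as the highest values.

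The 2 bHLH genes were those without a shared promoter peak, although the Hand2 peak of replicate 1 was higher than the highest of Insm1. At Hand2 (ENSMUSG00000038193.4, chr8:57320983-57324633, plus strand) this peak of 1.22 covered chr8:57320919-57321090 over the single start, which is also near the antisense gene Hand2os1. The longer peak list held this site in both replicates, at 1.22 and 0.824, and then 7 of 8 genes had a shared promoter peak, against 67.7% of all coding genes. Bases at an FDR of up to 0.001 within 1 kb of the Hand2 start numbered 172 in replicate 1 and 7 in replicate 2. Hand1 (ENSMUSG00000037335.13, chr11:57828705-57832818, minus strand) had no base at that FDR in either replicate, and its lowest FDR values were 0.0094 and 0.0068, which restates its lack of a peak in the shorter list. Even the longer list gave Hand1 only 0.515 in replicate 1 and 0.452 in replicate 2, at different places.

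In both GATA genes the highest promoter region lay nearer to an internal start than to the first start. Gata2 (ENSMUSG00000015053.14, chr6:88193891-88207032, plus strand) has 4 annotated starts, and its highest region, chr6:88198521-88198800 (5.39 and 2.78), lay in a UTR, 297 bp past one of the internal ones. At the first start, chr6:88193501-88194460 had 2.3 and 1.07 over 960 bp. The other 2 shared promoter regions were lower, at 0.816 and 0.725 in an intron and 0.689 and 0.713 at a coding exon. Gata3 (ENSMUSG00000015619.10, chr2:9857078-9890034, minus strand) has 6 annotated starts, and its highest region, chr2:9879541-9879820, lay in an intron at -1091 bp, that is upstream, of an internal start. It counted as a promoter through its edge alone: within 500 bp of a start the highest Gata3 values were 0.709 and 0.669. Over the first start of Gata3 no peak was shared; a peak of 0.809 in replicate 1 near it had its edge 20 bp from a start of the neighbouring 9230102O04Rik. Counted at the first start alone, 5 of the 8 genes had a shared promoter peak, against 59.1% of all coding genes.

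Isl1 (ENSMUSG00000042258.13, chr13:116298281-116309689, minus strand) had 1 shared region, chr13:116309601-116310060, over its first start. The heights were 3.33 and 1.46, and the stretch covered by peaks was 260 bp in replicate 1 and 460 bp in replicate 2. It was the only shared region in the Isl1 window of 211 kb, which holds no other coding gene.

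Insm1 and Rest had peaks of low or middling height but were open over long stretches around their starts. Insm1 (ENSMUSG00000068154.5, chr2:146221921-146225020, plus strand) had heights of 0.822 and 0.936 over chr2:146221561-146223723, a region of 2163 bp that begins before the start and runs into the gene, and 1.08 and 0.725 over chr2:146221181-146221480. Rest (ENSMUSG00000029249.15, chr5:77265491-77286432, plus strand) had 5.7 and 3.41 over chr5:77265261-77265600 at the first start, and 3.58 and 2.16 over the 1240 bp of chr5:77265721-77266960. Shared promoter regions summed to 2463 bp for Insm1, more than in 99.4% of genes with a shared promoter peak, while its height exceeded 6.89% and 5.27% of them. The sum was 1580 bp for Rest (more than in 96.4%) and 2273 bp for Gata2 (99.1%), which has more starts, against a median of 460 bp over all such genes.

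The share of bases at an FDR of up to 0.001 uses the criterion of the shorter peak list and divides by the bases around every annotated start. A gene with several separate starts is therefore divided by more bases. This share was highest for Insm1 and Rest. Of the bases within 1 kb of a start, 84.0% and 91.6% passed for Insm1 and 78.9% and 70.5% for Rest. These shares exceeded those of 99.3% and 99.7% of all coding genes for Insm1, and of 99.0% and 98.3% for Rest. Gata2 had 23.9% and 31.7% and Phox2a 12.4% and 25.2%, while Isl1 (9.78% and 7.93%) and Gata3 (9.1% and 7.62%) were below the medians of 12.2% and 11.1%. Counted in bases, Gata2 had 1914 and 2534 of 8004. Insm1 had 1681 and 1832 of 2001, and Rest had 2134 and 1909 of 2706, so Insm1 and Rest did not lead Gata2 throughout by this count. Insm1 and Rest also had the highest CpG content of the 8. The observed over expected CpG ratio in the 500 bp on each side of the first start was 1.05 for Rest and 0.934 for Insm1. It was between 0.703 and 0.774 for Phox2a, Hand2, Gata2 and Isl1, 0.481 for Gata3 and 0.339 for Hand1, with a median of 0.552 over all coding genes. Whether CpG content has a part in the breadth was not tested.

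**Figure D2:**
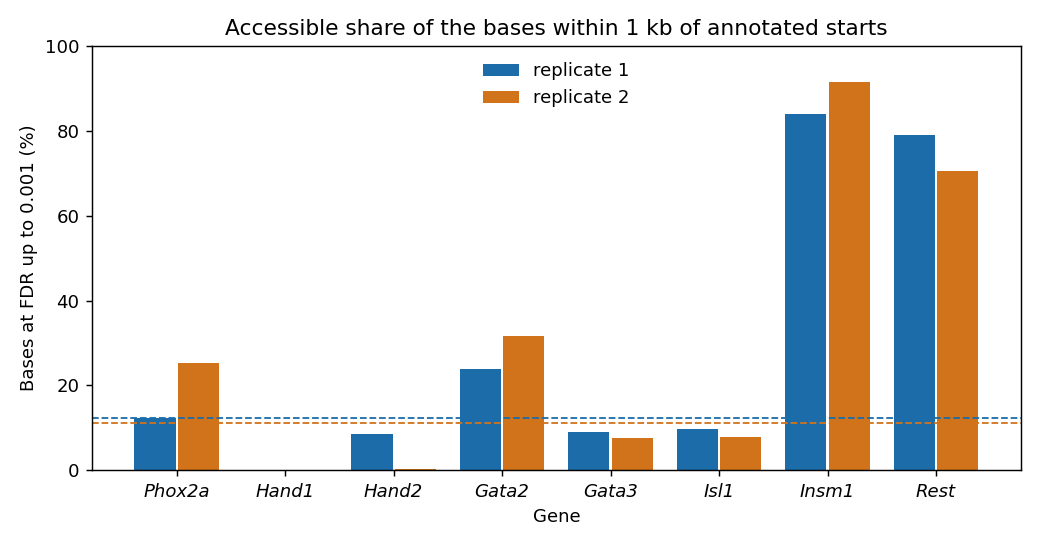
Percent of the bases within 1 kb of any annotated start of each gene that reached an FDR of up to 0.001, in replicate 1 (blue bars) and replicate 2 (orange bars); dashed lines are the medians of all coding genes. Insm1 (84.0% and 91.6%) and Rest (78.9% and 70.5%) stand far above the other 6 genes, and Hand1 is at 0.

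The broad Insm1 region held the most footprints of any promoter region of the 8 genes, 15 in replicate 1 and 24 in replicate 2, but only 2 of them were in both. The broad Rest region of 1240 bp held 8 and 10, with 4 in both, and the narrow Rest region at the first start held 8 in each replicate, with 8 in both. Over all promoter regions of a gene, footprints found in both replicates numbered 12 for Rest, 5 for Gata3, 4 for Gata2, 3 each for Phox2a and Insm1, and 2 for Isl1. The 15 shared promoter regions together held 29 such footprints, or 3.31 per kb, against 6.18 per kb over all 21677 shared promoter regions. At least 1 was present in 12 of the 15 (80.0%), against 80.9% of all shared promoter regions. The 15 regions were also lower than the rest, with median heights of 1.08 and 1.07 against 3.21 and 1.95, and the part of height in the footprint density was not tested.

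The surroundings of the 8 genes ranged from crowded to empty. The windows held 23 shared distal regions, of which Gata2 had 9, Rest 5, Hand1 3, Phox2a and Insm1 2 each, Hand2 and Gata3 1 each, and Isl1 0. Thus 7 of 8 genes had at least 1, against 83.0% of all coding genes, whose median was 3. Gata2 had more than 90.3% of coding genes, and its density of 4.22 per 100 kb compared with a median of 1.39. Replicate 1 held 52 distal regions in the windows and replicate 2 held 26, so 29 were found in replicate 1 only and 3 in replicate 2 only. Counting the longer list instead gave 14 for Gata2, 9 for Rest, 7 each for Hand1 and Insm1, 5 for Phox2a, 3 for Hand2, 2 for Gata3 and 0 for Isl1. Gata2 was thus first and Isl1 last with both lists. Nearness to a gene does not show that a region acts on it: other coding genes lie in 6 of the 8 windows.

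**Figure D3:**
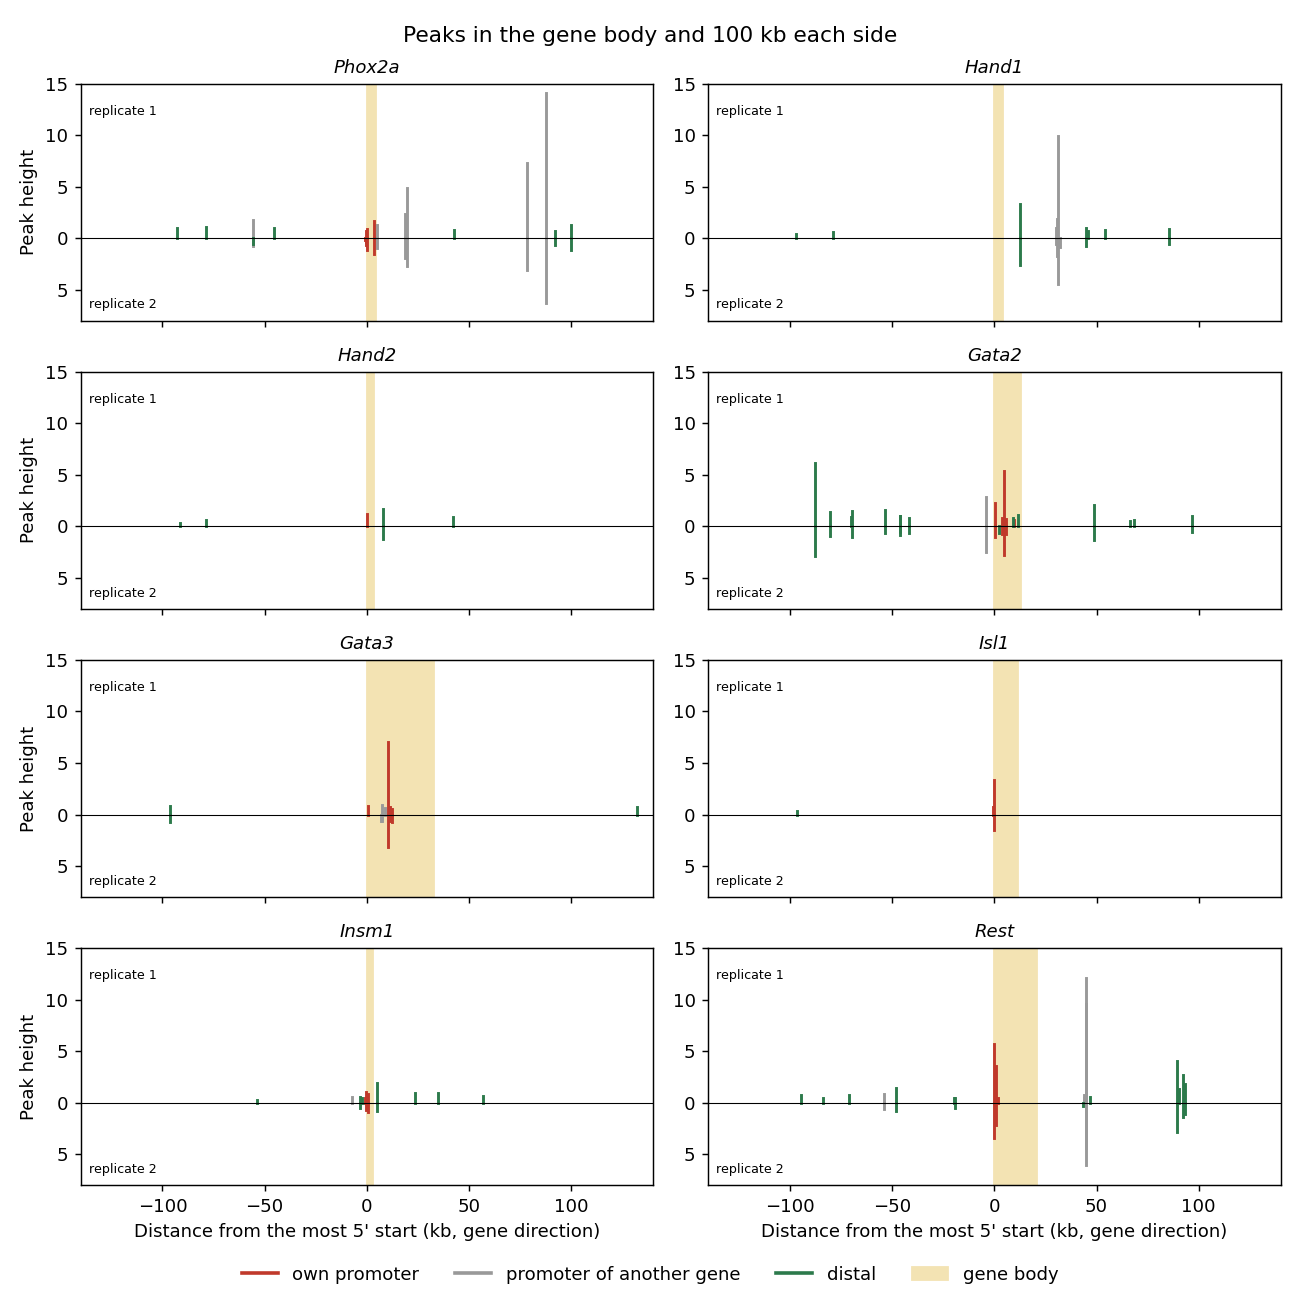
Peaks in the window of each gene by distance from its first annotated start (kb, in the direction of the gene), with heights of replicate 1 above the line and of replicate 2 below it; red is the gene's own promoter, grey the promoter of another gene and green distal, and the gene body is shaded. Gata2 has a row of distal peaks upstream with the highest near the left end, Hand1 has a distal peak past its end and none at its start, and the Isl1 window holds no shared peak but its own.

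The strongest distal regions are printed as 200 bases about their centres, with footprints common to both replicates in capitals. Gata2, Rest and Hand1 are shown because they had the most shared distal regions. Hand2 was added after its values were seen, because it had no shared promoter peak. Strands are those of the genes.
Gata2, chr6:88106121-88106320: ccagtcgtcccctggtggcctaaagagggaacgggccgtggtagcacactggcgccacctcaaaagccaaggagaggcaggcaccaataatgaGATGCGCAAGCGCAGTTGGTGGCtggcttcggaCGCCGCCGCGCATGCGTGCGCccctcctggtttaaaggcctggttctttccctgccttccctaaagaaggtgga
Rest, chr5:77354601-77354800: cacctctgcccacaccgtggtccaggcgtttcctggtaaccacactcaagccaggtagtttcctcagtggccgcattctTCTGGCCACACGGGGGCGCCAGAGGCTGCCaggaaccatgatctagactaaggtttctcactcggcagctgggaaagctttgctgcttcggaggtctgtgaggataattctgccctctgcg
Hand1, chr11:57820071-57820270: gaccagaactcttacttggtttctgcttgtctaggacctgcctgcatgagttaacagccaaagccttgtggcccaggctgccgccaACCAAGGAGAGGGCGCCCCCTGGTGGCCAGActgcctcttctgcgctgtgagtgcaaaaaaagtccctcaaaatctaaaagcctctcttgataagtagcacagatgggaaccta
Hand2, chr8:57328621-57328820: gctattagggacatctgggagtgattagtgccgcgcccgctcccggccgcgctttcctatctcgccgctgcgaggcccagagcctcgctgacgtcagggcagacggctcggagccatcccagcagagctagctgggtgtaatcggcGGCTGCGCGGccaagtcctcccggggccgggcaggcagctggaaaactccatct
The Gata2 region had heights of 6.17 and 2.88, above those of every Gata2 promoter region in both replicates. It lay between genes at -87670 bp, upstream of the first start, and 1863 bp from the start of Mir6376. The Rest region had 4.05 and 2.86 and lay in an intron of Igfbp7, 88505 bp downstream of the nearest Rest start. Hand1, with no promoter peak, had 3.37 and 2.63 at a region between genes, 11976 bp downstream of the nearest start of Hand1 and past the end of the gene. Hand2 had 1.73 and 1.26, 7738 bp downstream of its start and 3298 bp from the nearest annotated start, that of 5033428I22Rik.

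The remaining distal regions were mostly lower. For Gata2 the next were 2.06 and 1.28 in an intron of Dnajb8 (chr6:88242661-88242880) and 1.51 and 1.03 between genes (chr6:88124021-88124240). Rest had another 2 in introns of Igfbp7, at 2.69 and 1.41 (chr5:77357721-77358060) and at 1.79 and 1.08 (chr5:77358428-77358740). Insm1 had 1.87 and 0.806 at 4810 bp downstream of its start (chr2:146226641-146226840), which in replicate 1 is above its promoter, and 0.595 and 0.496 upstream. Both Phox2a regions lay in introns of Lamtor1 (1.25 and 1.13, and 0.662 and 0.601), and the Gata3 region in an intron of Taf3 (0.789 and 0.676). The median over the 23 distal regions was 1.42 and 0.806, close to the 1.5 and 0.874 of all 26622 shared distal regions. Footprints in both replicates were present in 20 of the 23 (87.0%), against 85.6% of all shared distal regions.

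In the windows of Phox2a, Hand1 and Rest the highest peaks belonged to the promoters of neighbours. In those of Gata2 (2.88 and 2.43) and Gata3 (0.889 and 0.595) the shared region at a neighbour was below the gene's own highest promoter region. The windows of Hand2, Isl1 and Insm1 had no shared region at the promoter of a neighbour. The start region shared by Lamtor1 and Tomt had 14.1 and 6.32 and Anapc15 had 7.29 and 3.09 in the window of Phox2a. The start region shared by 2010001A14Rik and Sap30l reached 9.96 and 4.43 in that of Hand1, and the start region shared by Polr2b and Noa1 reached 12.1 and 6.01 in that of Rest.

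Short sequence motifs were searched on both strands within 75 bp of the centre of each region. The GATA motif AGATAA was found in 0 of the 23 distal regions, a share for which the exact binomial interval reaches 14.8%, against 4.31% of all shared distal regions, so a difference was not detectable. With the longer peak list the direction turned, to 4 of 47 (8.51%) against 5.04% of all shared distal regions of that list. The E-box CATCTG that HAND factors bind with their partners was found in 2 of 23 (8.7%), against 13.6%. The homeodomain core TAATTA was found in 2 (8.7%, against 1.36%), and the cyclic AMP response element TGACGTCA in 2 (8.7%, against 0.342%). Both shares rest on 2 regions among several motifs searched and no interval was taken for them, so neither is read as an excess. The Hand2 region printed above is one of those with TGACGTCA, and chr5:77358428-77358740 in the Rest window is the other. The AP-1 motif TGACTCA was in 1 region (4.35%, against 6.17%), and the SF-1 site CAAGGTCA in 0 (against 2.27%). Apart from the CTCF core described next, no distal match lay in or touched a footprint found in both replicates. A match describes the letters only.

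A core of the motif of CTCF, the factor that organises chromatin loops, was added after the sequences had been seen. This core, GGNGGCGC, occurred in 3 of the 23 distal regions (13%, exact binomial interval 2.78% to 33.6%, against 8.66% of all), so a difference was not detectable. These 3 were the highest distal regions of Gata2, Rest and Hand1, whose sequences had been seen when the core was added. Their matches are therefore not independent of the choice of motif. With the longer list the core was in 3 of 47 (6.38%, against 5.75% of all in that list). In Rest and Hand1 it lay inside a footprint of both replicates. In the Gata2 region the match was at chr6:88106172-88106179, outside the footprints. The stretches about the footprinted matches are given with the core in capitals, on the strand of the gene, so that the Hand1 core reads as its reverse complement.
Hand1, chr11:57820142-57820196: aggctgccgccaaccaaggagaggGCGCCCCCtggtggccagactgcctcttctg
Rest, chr5:77354668-77354721: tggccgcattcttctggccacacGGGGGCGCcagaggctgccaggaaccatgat
Among the 15 promoter regions 5 held the core (33.3%, against 15.3%). These were all the shared promoter regions of Gata2 and that of Isl1, so they come from 2 genes. The promoter footprint stretches printed above for these 2 genes hold the core and had also been seen when it was added. No interval was taken, and the share is not read as an excess.

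Agreement between the replicates was compared as the log2 ratio of replicate 1 to replicate 2 height, less the median of 0.73 over all shared regions. For the 15 promoter regions the median of this centred log2 ratio was -0.52 and 10 lay below 0 (66.7%, against 47.1% of all shared promoter regions). For the 23 distal regions it was -0.18. Before centring, replicate 1 was the higher in 11 of the 15 promoter regions (73.3%), against 91.9% of all shared promoter regions. Replicate 2 was the higher outright, before centring, in 4 promoter regions: at the first start of Phox2a (0.896 and 1.09), over the broad Insm1 region (0.822 and 0.936), at a coding exon of Gata2 (0.689 and 0.713) and at a coding exon of Gata3 (0.555 and 0.682). The centred medians over the promoter regions of each gene were -0.66 for Phox2a, -0.65 for Gata3, -0.54 for Insm1, -0.17 for Gata2, 0 for Rest and 0.45 for Isl1. Height moved with this ratio: over all shared regions the uncentred median was 0.32 in the lowest decile by height and 1.13 in the highest. Centred within height deciles, the promoter median was -0.36 with 11 of 15 below 0, and the distal median was -0.06. The share below 0 within deciles was not taken over all shared promoter regions.

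**Figure D4:**
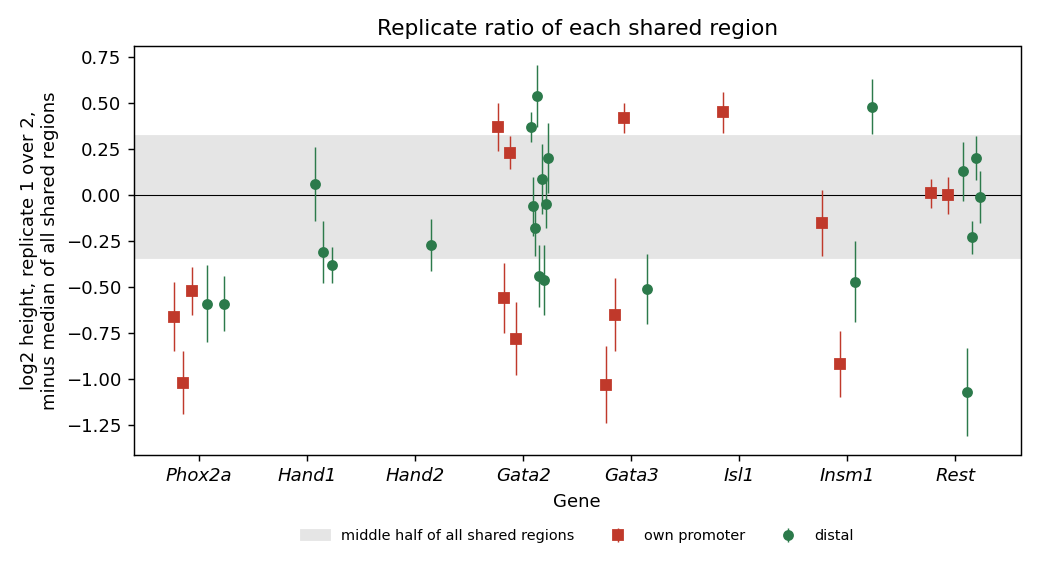
Centred log2 ratio of replicate 1 to replicate 2 height (vertical axis) for each shared promoter region (red squares) and distal region (green circles) of the 8 genes; the grey band holds the middle 50 percent of all shared regions, and bars are the counting error that would hold if 1 step of the height scale were 1 cut. All 3 Phox2a promoter regions lie below the band, while Isl1 and the highest Gata3 region lie above it.

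Rest acts through the RE1, so its element was read across the genome. The search string was TTCAGCACC, any 2 bases, then GGACAG, a strict form of the element that leaves out imperfect copies. None of the 8 windows held a match. The genome held 195, of which 119 (61.0%) lay under a shared peak. Of these 119, 117 (98.3%) touched a footprint in both replicates and 84 (70.6%) lay wholly inside one in both. The footprints that touched a match were long, with medians of 28.0 bp in replicate 1 and 27.0 bp in replicate 2, against 9.0 bp over all footprints in each. A long footprint is more likely to touch a given stretch, so part of this difference follows from the selection. Other stretches of the same length under shared peaks were not measured, so the shares that touched a footprint have no background.

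Genes that are known to carry an RE1 were then examined by name. Of 18 such genes, Rest itself among them, 17 had a shared promoter peak (94.4%, against 63.6% of all coding genes), Stmn2 being the exception. Only 7 had an exact match in their window, each under a shared peak, and the others, Rest included, had none. The 4 matches that lie outside UTRs are printed with 10 bases on each side, on the strand of the gene, with the element in capitals.
Chga: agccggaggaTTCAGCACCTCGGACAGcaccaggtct
Snap25: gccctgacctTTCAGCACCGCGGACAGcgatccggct
Stmn2: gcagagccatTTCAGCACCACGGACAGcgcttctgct
Scn2a: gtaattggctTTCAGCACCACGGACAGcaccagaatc
The Chga match (chr12:102555238-102555254), in an intron of this granule protein gene 260 bp from its start, lay under peaks of 2.2 and 1.83. That of Snap25 (chr2:136714338-136714354), which encodes a vesicle fusion protein, lay in an intron under 4.39 and 2.84. Peaks over the match were 0.722 and 0.626 for Stmn2 (chr3:8508230-8508246) and 0.575 and 0.372 for Scn2a (chr2:65619964-65619980), the sodium channel gene. All 17 bases were covered by a footprint in both replicates at Chga, Snap25 and Stmn2, while at Scn2a replicate 2 covered 14. The remaining 3 genes were Bdnf (1.43 and 1.13), Chrnb2 (3.22 and 2.47) and Syt4 (1.44 and 1.12).

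Lists of related genes were read for how many had a shared promoter peak, beside the 63.6% of all coding genes. Of 14 other sympathoadrenal regulators 11 had one, with median heights of 2.47 and 1.52, below those of the 6 open genes described above (4.36 and 2.13). Sox4 (8.66 and 4.12), Meis1 (7.53 and 3.4) and Meis2 (5.84 and 3.01) were the highest, and Tfap2b and Hoxc9 were among those that lacked one. All 16 cofactors of REST, GATA, LIM and HAND factors had one, with medians of 8.06 and 3.85. They were led by Zfpm1, which encodes the GATA partner FOG1 (15.4 and 6.37), Rcor1, which encodes the REST corepressor CoREST (13.6 and 4.9), and the deacetylase gene Hdac1 (12.4 and 5.4). Among 9 transcription factors of the cortex 7 had one, led by Cited2 (13 and 8.56) and Nr4a1 (12 and 5.13), with Wt1 and Tcf21 lacking it. Of 10 catecholamine and granule genes 6 had one, led by Slc18a1 (13.7 and 6.85, a start that lies near that of Atp6v1b2), Chgb (8.31 and 4.17) and Gch1 (6.4 and 3.17). Th, Ddc, Pnmt and Slc18a2 lacked one.

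Markers of the cell types in the gland were read in the same way. Of 6 chromaffin markers 4 had a shared promoter peak and of 6 cortex markers 4, with Star at 3.58 and 1.25 and Cyp11a1 at 3.74 and 1.87. The cortex markers lacking a shared one were Cyp21a1 and Mc2r. Replicate 1 gave them promoter heights of 2.21 and 0.802, and replicate 2 gave them none. Sympathetic neuron, Schwann and endothelial markers had 2 of 4 each, and fibroblast or capsule markers 3 of 4. GATA factors also act in blood cells: of 4 erythroid or mast markers only Kit had one (3.03 and 1.8) while Gata1, Klf1 and Hbb-bs had no promoter peak in either replicate, and of 4 T cell markers only Lck did (5.8 and 3.63). The part of any 1 cell type in the peaks of the 8 genes was not tested.

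The coding genes closest to each open gene in both promoter heights, among genes with as many shared distal regions, were Slc18b1 for Phox2a (1.76 and 1.49), Csnk1e for Gata2 (5.45 and 2.81), Fastkd5 for Gata3 (7.17 and 3.17), Flna for Isl1 (3.4 and 1.45), Pkib for Insm1 (1.08 and 0.725) and Rusc2 for Rest (5.68 and 3.4). Likeness was the distance between log2 heights over the 2 replicates, which ran from 0.004 for Rest to 0.034 for Isl1.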

How the data were processed

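DNase-seq of 2 adrenal gland samples of 1 group was analysed from the deposited peak, footprint and FDR lists. Per the labels and the deposited file listings, each sample was processed alone on mm10, with the aligner and callers not stated there. Heights of peaks are signal values, which the authors scaled for read depth; its steps were 0.00668 in replicate 1 and 0.0062 in replicate 2, and 100% of heights were whole multiples within 5% of a step. Read totals were not used, so depth is known only through 98813 and 55135 peaks and 339116 and 241536 footprints. Each footprint carries the same deposited p-value of 0.01, read as the threshold of the call. The deposited FDR lists give an adjusted p-value per stretch of bases under 0.05.

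How the 2 peak lists of a sample differ is not stated in the listings; the shorter was taken as the main one because all its peaks hold a base at an FDR of up to 0.001. Its peaks were merged over both replicates at a minimum overlap of 1 bp and assigned to starts of GENCODE M21. Heights of a region are those of its highest peak in each replicate. Percentages of genes compare each gene with all 21938 coding genes or with the 13948 that have a shared promoter peak. Binomial intervals are exact (Clopper-Pearson) and cover counting error only. Sequence came from the mm10 reference through pysam 0.24.0, with Python 3.11.15, pandas 2.3.3 and numpy 2.4.6; scripts were checked on simulated data. The genes and lists were chosen with earlier results of these data known. Text names all 8 genes, the 3 highest genes of each list and up to 3 without a peak, the 3 highest distal regions per window, and neighbours with a peak at their start; a few others were added after their values were seen, and some genes under this rule are not reported here. Alternatives were the longer list, promoters of 500 bp or 2 kb, the first start only, windows of 50 kb, stricter overlap, the higher 50% of peaks and each replicate alone.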

Additional observations from a re-analysis of the deposited data

How the results depend on the processing

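Of 45 alternative values, 34 stayed within the margin set for the result. The 6 genes with a shared promoter peak became 5 to 7 under every alternative run. The 23 shared distal regions became 47 with the longer list, 11 with windows of 50 kb and 8 with the 50 percent highest peaks, and single replicates held 28 to 53 peaks. The 29 promoter footprints found in both replicates became 17 when footprints had to overlap by 50 percent in each direction, and single replicates held 75 to 84. The median centred log2 ratio over the 38 promoter and distal regions was -0.21, and it ran from -0.52 to -0.17 across alternatives, against an SD of 0.46 among regions. Promoter heights moved with the start chosen: replicate 1 fell to 0.896 for Phox2a and 0.709 for Gata3 within 500 bp, and to 2.3 for Gata2 at the first start. AGATAA was in 0, 4.35 or 8.51 percent of distal regions (centre, whole region, longer list), and the CTCF core in 13, 13 or 6.38 percent. Low peaks of replicate 2, which had fewer calls, limit which regions count as shared. No paired analysis was possible because there is 1 group.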
